A study of Homo sapiens with 4 samples.

Results

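The regions described here are 108 SMAD3 peaks that lay inside protein-coding genes, had a pileup of 10 or more tags and overlapped no FLAG peak. They were taken from 7184 SMAD3 peaks in all, of which 6972 lay on chromosomes 1 to 22 and X. The summit had to lie in a RefSeq protein-coding gene, more than 1 kb from both of its ends. Of the 6972 peaks, 2739 met that condition, and 115 of these had 10 or more tags. A FLAG peak overlapped 7 of the 115, which were left out: 5 in IL33, 1 in ALKBH5 and 1 in SPATA31D3. Pileup is the number of sequenced fragments stacked at the summit after duplicates are removed, so the members were chosen by a measured height. That height and all values from the same comparison with input (fold enrichment, p and q) are therefore given as descriptions, without a test. The 2617 SMAD3 peaks inside genes with fewer than 10 tags and no FLAG overlap are set beside them and are called lower-pileup peaks.

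The peaks came from chromatin immunoprecipitation followed by sequencing (ChIP-seq) in A549 cells, an established line of human lung adenocarcinoma, carrying ATOH8 stably from a retrovirus. All 4 libraries were made from such cells: a ChIP with an antibody to SMAD3, a ChIP with an antibody to FLAG, and an input for each, which is sonicated chromatin without antibody. No library from cells without ATOH8, or from cells treated with TGF-beta, was analysed here, so the peaks cannot be set against a state without ATOH8. With 1 ChIP library per antibody there were no replicates. Tags left after filtering numbered 16857119 for SMAD3 and 17215727 for its input, and 17133946 for FLAG and 20785894 for its input. The labels do not say which protein carried the FLAG tag.

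SMAD3 is a transcription factor that receptors for TGF-beta and activin phosphorylate. It then joins SMAD4, enters the nucleus and binds short DNA elements, above all GTCT and its longer form CAGAC, usually next to other factors such as AP-1 or forkhead proteins. Much of its binding is known to fall in enhancers, which lie between genes or in introns as well as at promoters. ATOH8 is a basic helix-loop-helix factor, a class that binds E-boxes (CANNTG).

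The DNA letters under 1 member could be shown, because its summit fell on an annotated microRNA hairpin. This was the member in CUL4A, the scaffold of a ubiquitin ligase, at chr13:113262884-113263111 (GRCh38). The summit, 113262954, was base 35 of the 80-base hairpin of MIR8075, which RefSeq (GRCh38.p14) places at chr13:113262920-113262999 on the plus strand. It is printed because it is the only sequence held here that lies under a member. Capitals in the hairpin mark the 1 match to CAGAC, read on the opposite strand, and capitals in the mature microRNA mark its seed, bases 2 to 8.
MIR8075 hairpin: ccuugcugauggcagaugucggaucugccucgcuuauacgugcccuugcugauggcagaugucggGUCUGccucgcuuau
hsa-miR-8075: uGCUGAUGgcagaugucgggucug

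The hairpin repeats itself: moved by 43 bases against itself, 36 of 37 bases matched. The CAGAC match at bases 66 to 70, whose first base lies 31 bp from the summit, is in the second copy. It was also the hairpin's only match to GTCT. Each copy held an E-box, at bases 13 and 56, so the hairpin had 2. Searched on both strands, GTCT occurred in 45.8% of 799 RefSeq hairpins of 70 to 90 bases, CAGAC in 20.5% and CANNTG in 28.4%, and a GTCTG match counts for both of the first 2. No match was found to the GC-rich SMAD elements GGCGC and also GGCCG, to the AP-1 site TGANTCA, to the E-box form CAGCTG, to the forkhead site TGTTTAC, to the TEAD site GGAATG, to the GATA site AGATAA or to the NRF2 site TGACNNNGC. These matches describe the letters of 1 hairpin and locate no binding site. Among the lower-pileup peaks, 1 of 2617 overlapped a hairpin.

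Most members stood just above the height limit. Of the 108, 60 had 10 tags and 30 had 11, while 18 had 12 or more and 5 had 18 or more. With counting error alone, 10 tags carry an exact Poisson 95% interval of 4.8 to 18.4 tags. The median fold enrichment over input was 3.75 (quartiles 3.12 and 4.35, range 1.28 to 7.87). The lower-pileup peaks had a median of 3.09 (range 2.28 to 4.41). Fold is computed from the pileup that chose the members, so nothing is read from the difference in medians.

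A q value, the p adjusted for the many positions examined, was under 0.05 in 42 members (38.9%, exact Clopper-Pearson 95% interval 29.7 to 48.7%). The background is 2.50% of the 2725 SMAD3 peaks inside genes without FLAG overlap, members included, and 7.89% of all SMAD3 peaks. Since q follows from the pileup that chose the members, nothing is read from that difference. The 42 lay in 42 genes on 18 chromosomes, and 41 of them had a fold of 4 or more. The deposited −log10 q was 0 in 20 members, that is, in all but the 88 (81.5%) with a value above 0.

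On either side of the limit the median folds were close, at 3.85 for the 60 members with 10 tags and 3.75 for the 202 in-gene peaks with 9 tags. A q under 0.05 was held by 22 of the 60 (36.7%) and by 26 of the 202 (12.9%). Just inside, PADI2 and ABLIM1 reached 4.85-fold with 10 tags. Just outside, OLAH and CCDC7, both on chromosome 10, reached 4.41-fold with 9 tags (−log10 q of 1.34), a value that 21 of the 202 peaks shared.

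**Figure D1:**
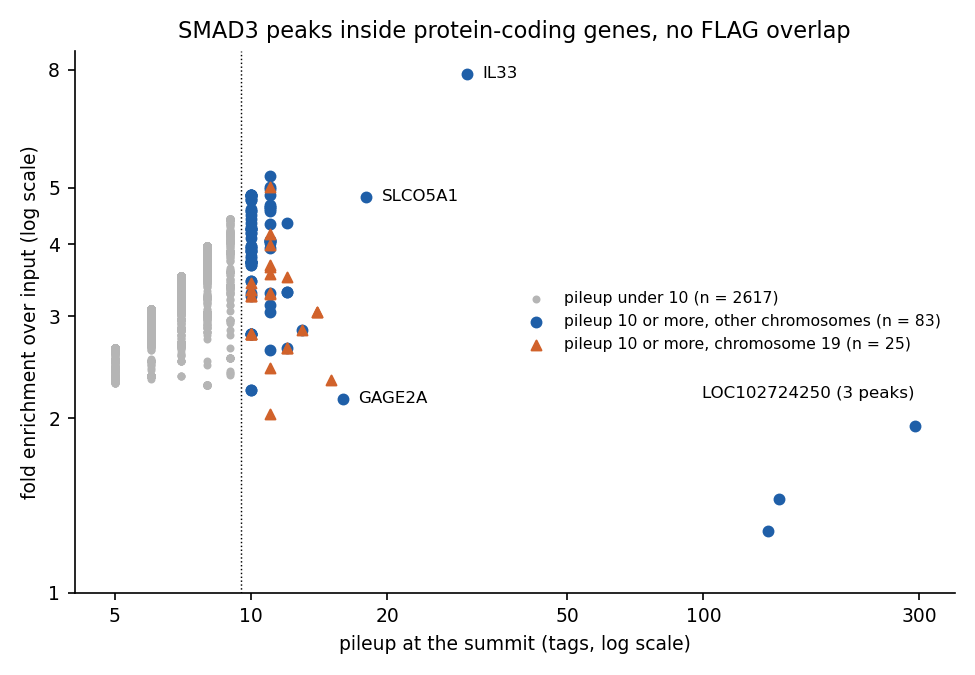
Each point is a SMAD3 peak inside a protein-coding gene, by pileup at the summit (tags) and fold enrichment over input, both on log axes. Grey points are the 2617 peaks under 10 tags, blue points the members on other chromosomes and orange triangles the 25 on chromosome 19. IL33 (30 tags, 7.87-fold) stands alone at the top, SLCO5A1 (18 tags, 4.83-fold) lies to the right of members with like folds, and the 3 LOC102724250 peaks stand at the right with folds under 2.

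The strongest member by fold was found in IL33, the gene of an alarm cytokine that damaged epithelium releases. It spanned chromosome 9, 6241576 to 6241897, with 30 tags, a fold of 7.87 and a −log10 q of 14.6. The background implied by its fold was 2.94 tags. Its summit lay 26.6 kb from the 5′ end of a 42.8 kb gene, and inside the annotated non-coding gene LOC107987046.

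IL33 held 5 further SMAD3 peaks, each overlapped by a FLAG peak and so not counted here. They had 43 to 194 tags and began 8452 bp past the end of the member. The nearest FLAG peak, 8435 bp away, had 81 tags and 23.6-fold. The member is thus the weakest of 6 SMAD3 peaks in that gene and the only one without a FLAG peak over it.

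After IL33, fold was decided by very few tags. RBKS (ribokinase) had 11 tags and 5.24-fold at chromosome 2, 27825658 to 27825981, with a −log10 q of 2.83. CUL4A and GNG7, the gene of a G protein gamma subunit, both had 11 tags, 5.02-fold and a −log10 q of 2.54. These 4 were the only members at a fold of 5 or more.

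WDR72, needed for tooth enamel, followed at 4.98-fold with 11 tags, and OGA, which removes O-GlcNAc from proteins, at 4.86-fold with 11 tags. PADI2 (a peptidylarginine deiminase), ABLIM1 (an actin-binding protein), CRACR2A (a regulator of calcium entry), GALM (a sugar mutarotase) and DPP6 (a potassium channel subunit) tied at 4.85-fold, each with 10 tags and a −log10 q of 2.09. Those 5 stood on the lowest background the caller can use, the genome-wide value of 1.27 tags. A member with 10 tags cannot exceed 4.85-fold and one with 11 tags cannot exceed 5.29-fold on that background, so order among these genes reflects 1 tag or small differences in input.

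SLCO5A1, of the organic anion transporter family, was set apart by height rather than fold. It had 18 tags (Poisson 95% interval 10.7 to 28.4) and a −log10 q of 4.13 on a background of 2.94 tags. Among members with an implied background under 5 tags, only IL33 had a higher −log10 q.

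Several further members with a q under 0.05 lay in the genes below, which were named after their values were seen. CDC42EP3 had 11 tags and 4.67-fold. ANTXR1, a receptor for collagen and anthrax toxin, had 10 tags and 4.60-fold. COL13A1, a transmembrane collagen, had 10 tags and 4.35-fold. PKM, the pyruvate kinase gene, had 11 tags and 4.04-fold. They cover unrelated functions, and no theme is named for them.

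The tallest members were not the most enriched. LOC102724250 on chromosome 1 held 3, with 293, 139 and 147 tags in order along the chromosome (629685 to 629998, 630805 to 631101 and 631898 to 632262). Their implied backgrounds were 150.8, 108.7 and 100.9 tags, and their folds 1.94, 1.28 and 1.45. Only the first had a q under 0.05 (−log10 q of 18.2). The first summit lay in MTND2P28 and the third in MTCO1P12, both pseudogenes named after mitochondrial genes, and gaps between the peaks were 807 and 797 bp. The FLAG list held no peak in LOC102724250. On the mitochondrial genome itself the SMAD3 list held 2 peaks, at positions 79 to 383 and 15969 to 16502. They had 377 and 402 tags, backgrounds of 214 and 352 tags and folds of 1.75 and 1.14. A FLAG peak overlapped the second, at 15915 to 16341, with 421 tags, a background of 355 tags and 1.18-fold. The part of mitochondrial tags in the 3 members was not tested.

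An implied background of 5 or more tags occurred in 5 members (4.63%, 1.52 to 10.5%) and in 0 of 2617 lower-pileup peaks, where the pileup under 10 tags leaves little room for one. The other 2 of the 5 were GAGE2A on chromosome X (16 tags, 2.16-fold, background 6.85) and GPATCH1 on chromosome 19 (15 tags, 2.33-fold, background 5.88). GAGE2A and another host, GAGE12E, belong to a family with 12 members in the gene table, NBPF19 and NBPF20 to one with 14, and CNTNAP3B to one with 3. Short tags can fit several of these near-identical copies, so the position of these 5 members is uncertain. Of these, GAGE12E alone had a q under 0.05 (4.18-fold, 10 tags).

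Few input tags stood behind many folds. In 39 of 108 members (36.1%) the implied background equalled a whole number of input tags under the peak after scaling by 0.979, within 0.001: 2 tags in 9, 3 in 14, 4 in 10 and 5 or more in 6. The 6 with 5 or more include the 3 members in LOC102724250, whose backgrounds of 101 to 151 tags are not few. The same match held for 411 of 2617 lower-pileup peaks (15.7%), with 2 tags in 383 and 3 in 28. A pileup under 10 tags leaves little room for more input tags, so nothing is read from the difference in shares. A count of 3 has a Poisson 95% interval of 0.619 to 8.77.

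Chromosome 19 held 25 members (23.1%, 15.6 to 32.2%), more than any other chromosome. It held only 58 of the lower-pileup peaks (2.22%, 1.69 to 2.86%) and 2.37% of gene length after trimming 1 kb from each end. Members per Mb of gene were 0.861 there, 0.269 on chromosome 15 and 0.225 on chromosome 20, and at most 0.142 elsewhere. Chromosomes 4, 18 and 21 had none, but they held only 27, 14 and 11 in-gene SMAD3 peaks, too few to read anything from. With a limit of 8 tags, 6.7% of 821 peaks lay on chromosome 19.

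**Figure D2:**
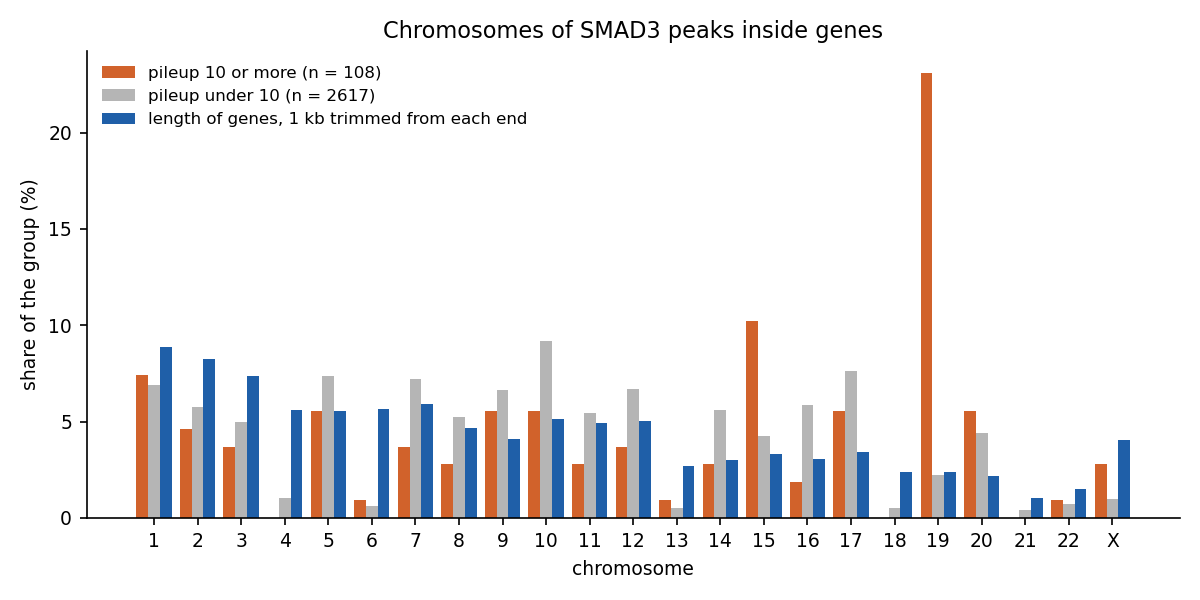
Share of members (orange), of lower-pileup peaks (grey) and of trimmed gene length (blue) on each chromosome, in percent. Chromosome 19 has 23.1% of members against 2.22% of lower-pileup peaks, and chromosome 15 has 10.2% against 4.24%; counts carry no replicate error.

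Position split chromosome 19 itself. GNG7, at 2.54 Mb, was alone on the first part, and the other 24 members lay between 30.6 and 56.9 Mb. Past 30 Mb, a boundary chosen after the positions were seen, 24 of 66 in-gene peaks (36.4%, 24.9 to 49.1%) had 10 or more tags, against 1 of 17 up to that point and 66 of 2399 (2.75%, 2.13 to 3.49%) outside chromosomes 15, 19 and 20. Since the height chose the members and their positions the boundary, these shares are a description only.

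Implied input background was also higher past 30 Mb, though it is computed with the pileup that chose the members. Over all in-gene SMAD3 peaks, members included, the median was 2.28 tags past 30 Mb of chromosome 19 (2.07 to 2.43). It was 1.39 before it (1.31 to 1.47) and 1.41 outside the 3 chromosomes (1.39 to 1.43), and these intervals overlap. Over lower-pileup peaks only, the medians were 2 tags past 30 Mb, 1.39 before it and 1.43 on all other chromosomes. The separate FLAG library and its own input were also highest past 30 Mb, with medians of 2.60, 1.53 and 1.57 tags. Over FLAG peaks under 10 tags they were 2.44, 1.53 and, on all other chromosomes, 1.55. In that list, in-gene peaks without SMAD3 overlap reached 10 tags in 29 of 49 cases past 30 Mb (59.2%), in 2 of 26 before it and in 365 of 2662 outside (13.7%). How far background sets the number of members there was not tested.

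**Figure D3:**
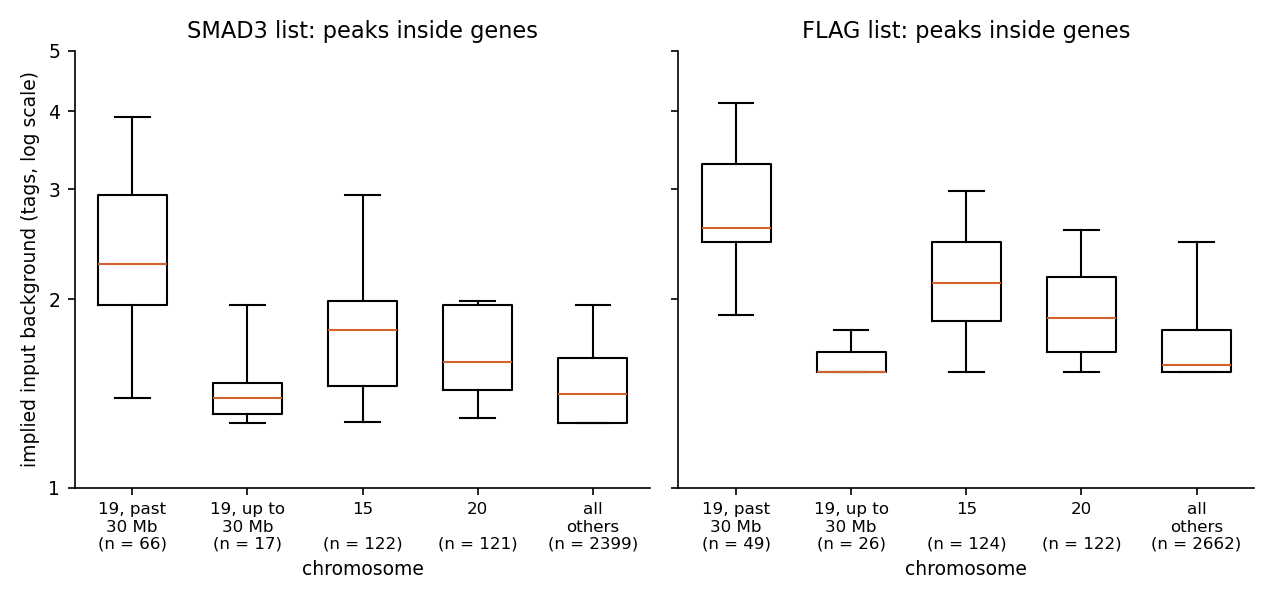
Implied input background (tags, log axis) of in-gene peaks in the SMAD3 list (left) and the FLAG list (right), each without peaks that overlap the other list, by region. Boxes span the quartiles with the median in orange, and whiskers the 5th to 95th percentile. In both lists chromosome 19 past 30 Mb is highest, at medians of 2.28 and 2.60 tags.

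The members on chromosome 19 were less enriched than the rest. Pileups there ran from 10 to 15 tags with a median of 11, against a median of 10 elsewhere, and the median fold was 3.25, against 3.97 for the 83 members elsewhere. Of the 25, 2 had a q under 0.05, GNG7 and KASH5 (11 tags, 4.15-fold), whereas 40 of 83 elsewhere did. Chromosome 19 thus held 23.1% of members but 4.76% of the 42 with a q under 0.05.

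The hosts named next on chromosome 19 were picked after their values were seen, and no theme is named for them. POU2F2, the octamer factor OCT2 of B cells, held 2 members, with 10 tags (2.79-fold) and 14 tags (3.05-fold). TSHZ3 had 11 tags and 3.29-fold, ZNF536 had 10 tags and 3.25-fold, and HIF3A, of the hypoxia-inducible factor family, had 10 tags and 2.79-fold. None of these 5 peaks had a q under 0.05.

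Likewise picked, WDR87 held 2 members 1207 bp apart (11 and 14 tags), and PDCD2L held 2 members 1723 bp apart with 10 tags each. SPTBN4, a spectrin, had 12 tags and 3.51-fold. NPHS1, which encodes the kidney protein nephrin, had 12 tags and 2.64-fold, and RUVBL2, an ATPase of chromatin remodelling complexes, had 11 tags and 2.04-fold, the lowest on the chromosome.

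Chromosome 15 held 11 members, or 9.02% of its 122 in-gene peaks (4.59 to 15.6%). Its median background over those peaks was 1.79 tags, and 42 of 124 FLAG peaks there (33.9%) reached 10 tags. A q under 0.05 was found for WDR72, UBAP1L (4.33-fold) and PKM, while SV2B and ADAMTS17 had 12 tags at 3.30-fold each. On chromosome 20, 6 of 121 in-gene peaks were members (4.96%, 1.84 to 10.5%), with PRND (11 tags, 4.56-fold) and MTCL2 (10 tags, 4.76-fold) under a q of 0.05. Chromosomes 15 and 20 were set apart after their members per Mb were seen. The share of in-gene peaks does not single them out. It was 10.7% on chromosome X (3 of 28), 7.14% on 13, 5.88% on 6 and 5% on 22, all from few peaks. Apart from WDR72, the genes named here for chromosomes 15 and 20 were picked after their values were seen.

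Members lay in shorter genes than lower-pileup peaks. The median host was 74.9 kb long (55.8 to 109 kb) against 139 kb (130 to 149 kb). Where a summit fell in several genes, the shortest was used. On chromosome 19 the median host was 29.3 kb long. The 83 members elsewhere had a median of 93.3 kb against 145 kb for lower-pileup peaks elsewhere. Hosts under 50 kb held 38.9% of members and 22% of lower-pileup peaks. The median over all protein-coding genes was 24.2 kb.

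Along the gene, members were spread over the whole length. Strand was known for the hosts of 90 members, and the median summit lay 54.7% of the way from the 5′ end (43.4 to 59.3%), against 50.6% for lower-pileup peaks. The first 20% of gene length held 20% of members and the last 20% held 17.8%. A RefSeq promoter window (250 bases before to 50 after a start) was overlapped by 0 of 108 members, an exact interval of 0 to 3.36%. It was overlapped by 13 of 2617 lower-pileup peaks (0.497%), so no difference was detectable. In 21 of 105 members (20%, 12.8 to 28.9%) an annotated start of any gene lay within 5 kb, against 11.9% of lower-pileup peaks (10.6 to 13.2%). On chromosome 19 the shares were 28% (12.1 to 49.4%) and 17.2%. Elsewhere they were 17.5% (9.91 to 27.6%) and 11.8%, so the members' interval held the lower-pileup share in both parts. Of the members, AHNAK2 came nearest, at 245 bp, with 12 tags and 4.35-fold.

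**Figure D4:**
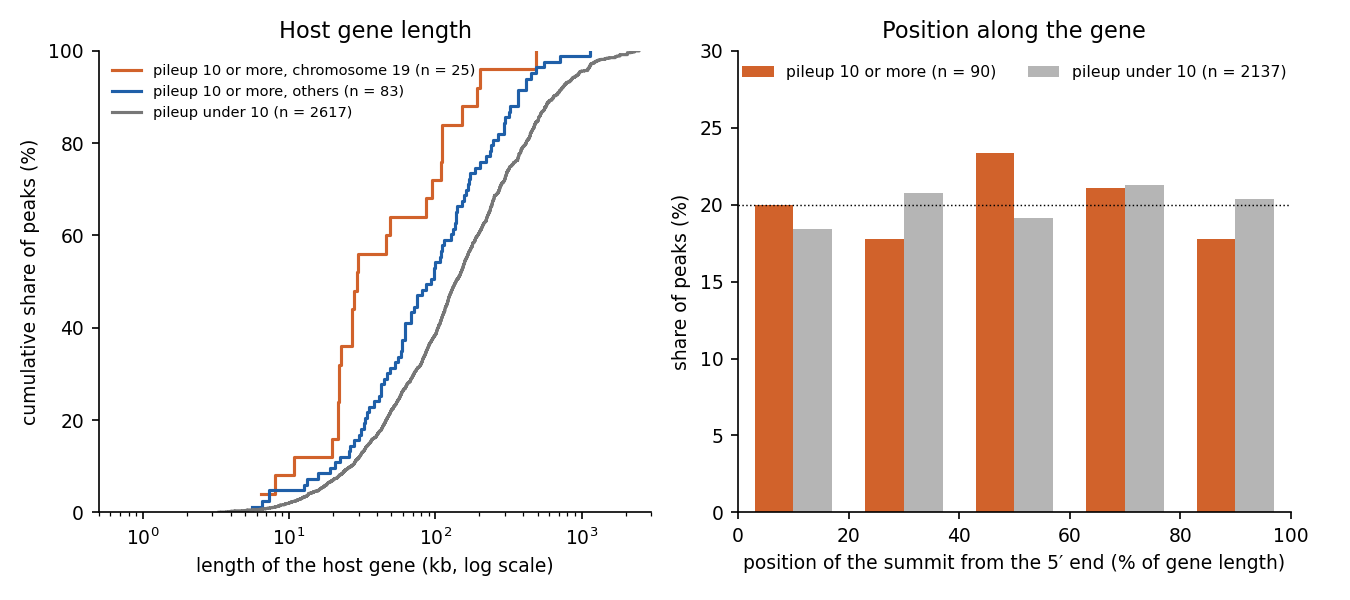
Left, cumulative share of peaks by length of the host gene (kb, log axis), for members on chromosome 19 (orange), members elsewhere (blue) and lower-pileup peaks (grey), with medians of 29.3, 93.3 and 139 kb. Right, share of summits in each 20% of host gene length from its 5′ end, with a dotted line at the even share of 20%; members (orange) range from 17.8 to 23.3%.

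Some members coincided with other annotated features. The summit lay in a non-coding gene or pseudogene in 13 (12%, 6.57 to 19.7%), against 7.53% of lower-pileup peaks. Of the 13, 8 were in long non-coding RNA genes, 4 in pseudogenes and 1 in MIR8075. Apart from the mitochondrial-named copies, the pseudogenes were RHBDF1P1 in GRIP2 (10 tags, 4.25-fold) and ACTG1P14 in KDM4C (10 tags, 3.94-fold). Exons, introns and UTRs were not assigned.

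Distances to FLAG peaks did not differ beyond counting error between members and lower-pileup peaks. A FLAG peak was within 10 kb of 7 members (6.48%, 2.65 to 12.9%) and of 6.88% of lower-pileup peaks (5.94 to 7.92%). Within 100 kb the shares were 48.1% and 47.5%, and median gaps were 105000 bp (78000 to 150000 bp) and 107000 bp. All these peaks overlap no FLAG peak by choice, so only the distance beyond overlap is compared.

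The nearest FLAG peak was 1734 bp from the member in the hair keratin genes KRT81 and KRT86, which overlap each other. That member had 10 tags and 4.56-fold, and the FLAG peak 9 tags and 2.75-fold. At C15orf39 the gap was 1778 bp (SMAD3 11 tags and 3.29-fold, FLAG 8 tags and 2.58-fold). At TOM1L2, an endosomal sorting gene, it was 4163 bp (SMAD3 10 tags and 3.78-fold, FLAG 10 tags and 3.66-fold). GNG7, TRIO, MYADM and IL33 made up the 7, and a FLAG q under 0.05 was found next to TRIO and IL33 only.

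The host genes themselves often held a FLAG peak elsewhere. A FLAG peak lay inside 35 of the 104 host genes of members (33.7%) and inside 686 of the 2006 genes that hosted lower-pileup peaks only (34.2%), whose median lengths were 78.2 and 108 kb. After IL33, the FLAG peaks with the highest folds in host genes were in ABLIM1 (6 peaks, up to 5.38-fold with 14 tags), TUBB8 (5.02-fold) and DLGAP4 (4.65-fold with 19 tags). In ABLIM1, TUBB8 and DLGAP4 the members lie apart from these FLAG peaks by the rule that chose them, so the separation is no result.

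Some members had close SMAD3 neighbours. Another SMAD3 peak lay within 10 kb of 17 members (15.7%, 9.45 to 24%) and of 192 lower-pileup peaks (7.34%, 6.37 to 8.4%). Outside chromosome 19 the shares were 15.7% and 7.42%. With a limit of 8 tags in place of 10, the members' share was 9.5%. Of the 17, 7 were members in LOC102724250, WDR87 and PDCD2L that neighbour each other. Without peaks in those genes, a setting chosen after seeing the data, 10 of 101 members (9.9%, 4.85 to 17.5%) had a neighbour. Those members were taken out because they neighbour each other, and no lower-pileup pairs were taken out likewise. The fall in share follows from that choice, so nothing is read from setting it beside the 7.34% of lower-pileup peaks. The closest neighbour was in CDC42EP3, 347 bp away. Among hosts of a single member, C9orf43 followed at 1548 bp. A lower-pileup peak was present in 33 of the 104 host genes (31.7%). Over all protein-coding genes, 10.6% hosted an in-gene SMAD3 peak of any height without FLAG overlap. Host genes were longer, at a median of 78.2 kb against 24.2 kb, and the part of length in that share was not tested.

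Genes of the SMAD3 pathway held none of the members. Of 51 TGF-beta and BMP pathway components, 50 TGF-beta target genes and 48 partner transcription factors and cofactors of SMAD3, 0 hosted one. Over all 19974 protein-coding genes on these chromosomes the share was 0.521% and lists of this length are too short to show a difference from it.

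Peaks of any height were found in them. Of the pathway components 7 (13.7%), of the target genes 4 (8%) and of the partners 7 (14.6%) hosted an in-gene SMAD3 peak without FLAG overlap, against 10.6% of all protein-coding genes. Median gene lengths were 73.5, 22.8 and 36.8 kb.

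Over all the lists given here, 3 of 453 genes (0.662%, 0.137 to 1.92%) hosted a member, a share near the 0.521% of all protein-coding genes, so the 3 are named without being read as a result about their lists. Of 83 cell cycle genes, MAD1L1, which encodes the spindle checkpoint protein MAD1, had a member with 10 tags, 4.18-fold and a −log10 q of 1.30 (chromosome 7, 2217648 to 2218020). Its summit lay 15013 bp into a gene of 417 kb. Of 59 receptor tyrosine kinase and MAP kinase genes, MAPK9, which encodes the kinase JNK2, had one with 10 tags and 3.72-fold. Of 52 chromatin regulators, KDM4C, a histone demethylase, was the only host. Lung epithelial genes (40), cell adhesion and junction genes (55) and NRF2 target genes (35) had 0.

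Counting peaks of any height, 30.9% of adhesion genes and 28.8% of chromatin regulators hosted an in-gene SMAD3 peak, against 10.6% of all protein-coding genes. These lists also have long genes, with medians of 134 and 125 kb. The share was 22% for receptor tyrosine kinase and MAP kinase genes (median 104 kb) and 20% for NRF2 target genes (22.5 kb). Lung epithelial genes (11.1 kb) stood at 10%. The part of gene length in these shares was not tested. The cell cycle list stood at 8 of 83 (9.64%), with a median length of 29.4 kb.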

How the data were processed

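ChIP-seq peaks of SMAD3 and FLAG in A549 cells, 1 ChIP library and 1 input each, were used. The submitters' processing notes name FastQC 0.11.8, Bowtie2 (its version not given in the sources used here), MACS2 2.2.7.1 and the build hg38. Single-end tags, 1 kept per position, a p cutoff of 0.0065 and local background windows of 1000 and 10000 bp were set, per the file headers. The authors deposited, peak by peak, the pileup signal, the fold enrichment ratio, and −log10 p and −log10 q; headers say q would not be calculated, yet the column holds values, used as they stand. These values are the authors' own for each peak.

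Implied background was (pileup + 1) / fold − 1. Genes, strands and hairpins came from RefSeq GRCh38.p14 tables, which matched a strand for 90 members. Motifs under other members need a genome, so were not run. Intervals are exact (Clopper-Pearson, order statistics for medians, Poisson) at 95% and cover counting error only. Overlap meant 1 bp or more. Python 3.11.15, pandas 2.3.3, numpy 2.4.6 and scipy 1.17.1 were used, and overlap and host counting were checked on simulated data.

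Members and lists were chosen with earlier results of these data known. Named genes are the 10 members highest in fold, 5 in pileup and 5 in −log10 q (background under 5), genes with 3 or more members, the 3 nearest a FLAG peak, up to 4 per gene list, and 2 on either side of the limit; all other genes named were chosen after their values were seen. Alternatives changed the pileup limit, q, fold, distance from gene ends, FLAG overlap, gene set and background. The result of 1 further gene list is not reported here.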

Additional observations from a re-analysis of the deposited data

How the results depend on the processing

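With 1 library per antibody no replicate could be left out. Leaving out chromosome 19, LOC102724250 with the NBPF, GAGE and CNTNAP3 genes, or LOC102724250, WDR87 and PDCD2L was chosen after seeing the data. No paired analysis was possible because each group has 1 sample and no test was made. Of 93 alternative values, 75 stayed within the interval of the reported value (or within 1.5 times, for counts) and 18 moved; the height limit and filters on q or fold moved most, since they keep other peaks, and further causes were not tested. The number of members was 821 at 8 or more tags, 7 at 15 or more, 42 with a q under 0.05 and 43 at a fold of 4 or more. The share with a q under 0.05 was 8.28% at 8 tags and 95.3% at a fold of 4. The share with a background of 5 or more was 0.609% at 8 tags, 71.4% at 15 tags, 0% at a fold of 4 and 1% without LOC102724250 and the NBPF, GAGE and CNTNAP3 genes. At 15 tags, with 7 peaks left, 57.1% had a SMAD3 neighbour and 14.3% a FLAG peak within 10 kb. At 8 tags the median host was 131 kb long. Over every gene list, the 1 not reported here included, 41 genes hosted a peak at 8 tags, in place of 3. The share of all protein-coding genes at 8 tags was not computed, so nothing is read from the 41. The share on chromosome 19 was 6.7% at 8 tags, 14.3% at 15 tags, 4.76% with a q under 0.05 and 4.65% at a fold of 4. Distance from gene ends, the definition of FLAG overlap and the gene set moved none of the values computed. Asking for no FLAG peak within 1 kb, or for 50% reciprocal overlap, left the same 108 members. Values under those settings could not move, though they count among the 75. The motif alternatives were not run. Most members have 10 or 11 tags, close to the limit that chose them; depth itself was not varied.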
